A study of Mus musculus with 10 samples.

Results

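Transcripts of cytochrome P450 families 1 to 4 were followed through 5 populations of mouse small-intestinal crypt cells. Members were genes whose name begins with Cyp1, Cyp2, Cyp3 or Cyp4 followed by a subfamily letter, without the names that mark pseudogenes, and with at least 10 counts in at least 2 of the 10 libraries. Of 35006 named genes in the count files, 77 carried such a name and 32 met the count minimum. Cyp1a1, with 10 and 13 counts in the libraries that reached the minimum, Cyp2r1, with 11 and 11, and Cyp2j5, with 14 and 35, lay just inside it. Cyp2a12, Cyp2f2 and Cyp2j8 lay just outside, each with 1 such library, at 10, 14 and 10 counts. Among the 45 genes below the minimum, 21 had no count in any library and 13 had between 1 and 3 counts over all libraries together.

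Cytochrome P450 enzymes of these families sit in the membrane of the endoplasmic reticulum, bind a haem group, and insert an oxygen atom into their substrate with electrons passed on by P450 oxidoreductase and cytochrome b5. Families 1 to 3 are best known for the oxidation of drugs, dietary compounds and steroids, and Cyp2c and Cyp2j enzymes also form epoxides of arachidonic acid, while family 4 hydroxylates the far end of fatty acids and leukotrienes. In the small intestine such enzymes are best known from the absorptive enterocytes of the villus, where they act on compounds taken up from food, and many of their genes answer to nuclear receptors such as Pxr, Car and Ppara, or, for Cyp1a1, to the aryl hydrocarbon receptor.

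The cells came from C57BL6/J mice that carry OSCAR, a ratiometric fluorescent reporter that reads RNA polymerase II phosphorylation inversely. The paper found a high OSCAR ratio in cells with low staining for phosphorylated RNA polymerase II. The construct was knocked into the Rosa26 locus under the EF1a promoter, with its stop cassette deleted by Vasa-Cre. Live EpCAM+ cells were sorted by their reporter signal, 10000 cells per population, and polyadenylated RNA was sequenced; the age of the mice is not given. P1 is OSCARlow EF1alow, P2 OSCARhigh EF1alow, P3 OSCARlow EF1ahigh, P4 OSCARmed EF1alow and P5 OSCARmed EF1ahigh, and each has 2 libraries, which the paper describes as biological replicates. Library totals ran from 3857612 to 6485823 counts. A gene at 0 in a library could still hold up to 3 counts, between 4.63e-05% and 7.78e-05% of the total, and this limit and the intervals given here cover counting error only.

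Levels are counts-per-million values (CPM), with library sizes scaled by edgeR's TMM factors, which ran from 0.490 in P3 replicate 1 to 1.56 in P4 replicate 2. Pairs of values are given as replicate 1 and replicate 2. Tests were run over 13708 genes with edgeR's quasi-likelihood test and Benjamini-Hochberg adjustment, called here the edgeR adjusted p, and a gene was called at a value under 0.01. Differences are log2 fold changes with a standard error (SE).

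The labels of P2 and P3 need care. The study describes secretory cells under P3, yet the secretory markers were most abundant in the libraries labelled P2: the 10 listed Paneth cell markers summed to 570047 and 410209 CPM there, with Lyz1 as the most abundant at 264451 and 183077 CPM. The 10 goblet cell markers summed to 51566 and 114518 CPM in the same libraries, with Fcgbp as the most abundant. The libraries labelled P3 stood apart by their mitochondrial share, 59.2% of counts in replicate 1 (95% Wilson interval 59.1% to 59.2%) and 36.1% in replicate 2 (36.0% to 36.1%), against at most 5.19% in the other 8 libraries. No library was renamed, and comparisons that do not use P2 or P3 were refitted without each of them.

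The 32 members fell into 15 subfamilies, led in number by Cyp2c with 7 of 15 named genes, Cyp4f with 6 of 8 and Cyp3a with 4 of 9. Most lie in tandem clusters of related genes. On the NCBIM37 assembly the 6 Cyp4f members lie on chromosome 17 between 32643407 and 33084347, the 7 Cyp2c members on chromosome 19, 4 Cyp3a members on chromosome 5 and 3 Cyp2j members on chromosome 4. Reads with several alignments were not counted, so members with near-identical copies are uncertain. Of the 75-base windows that lie inside a single exon, Cyp2c68 shared 29.1% exactly with another place in the genome. Cyp4f16 shared 18.2%, Cyp4a10 14.2%, Cyp3a59 12.1% and Cyp3a25 11.3%. Windows across exon joins were not searched. The remaining 27 members shared under 10%, and 13 of them none. Counting ignored strand, and exons of Cyp2u1 (23.5% of its length), Cyp2s1 (5.27%) and Cyp2c55 (3.21%) overlap a gene on the opposite strand, while 10.6% of Cyp4v3 overlaps Klkb1 on the same strand, so reads of the overlapping parts cannot be told apart.

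Together the members took between 0.0434% of counts, in the library labelled P2 replicate 1 (95% Wilson interval 0.0416% to 0.0453%), and 0.435%, in P5 replicate 1 (0.430% to 0.440%). Their summed level was 3164 and 1534 CPM in P1, 631 and 656 in the libraries labelled P2, 3377 and 1313 under the label P3, 1771 and 885 in P4, with 3201 and 1471 in P5. Both libraries labelled P2 lay below every other library, and outside them each replicate 1 lay above every replicate 2. Fewer cells of a type and less RNA per cell cannot be told apart in such bulk libraries. A share of counts also depends on the other genes. Mitochondrial genes took 59.2% in P3 replicate 1, and Paneth cell markers summed to 570047 CPM in the library labelled P2 replicate 1. Their part in the members' shares was not tested. Single members spanned 0.554 to 342 CPM on average, with a median of 15.8 CPM beside 21.9 CPM for all genes tested. The 12 most abundant held 88.1% of the summed level. All 32 passed the filter on low counts, 20 were above 0 in every library, and Cyp2j5 was at 0 in 5 libraries.

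**Figure D1:**
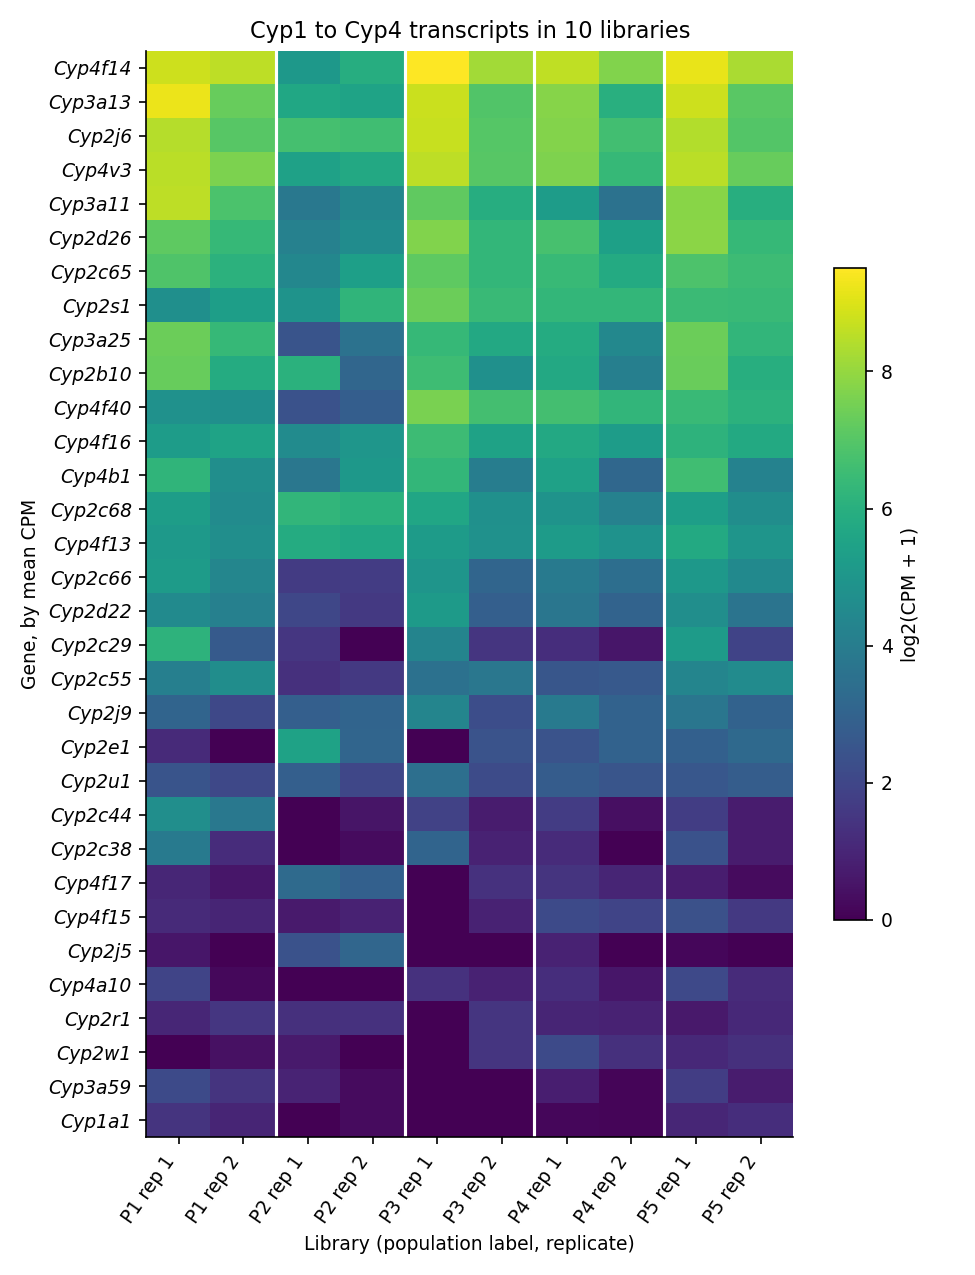
Level of the 32 members in each library, as the log2 of CPM plus 1, in order of their mean CPM. Columns are libraries by population label and replicate; the columns labelled P2 are darker for most abundant members, with Cyp2c68, Cyp4f13 and Cyp2e1 among the exceptions.

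**Figure D2:**
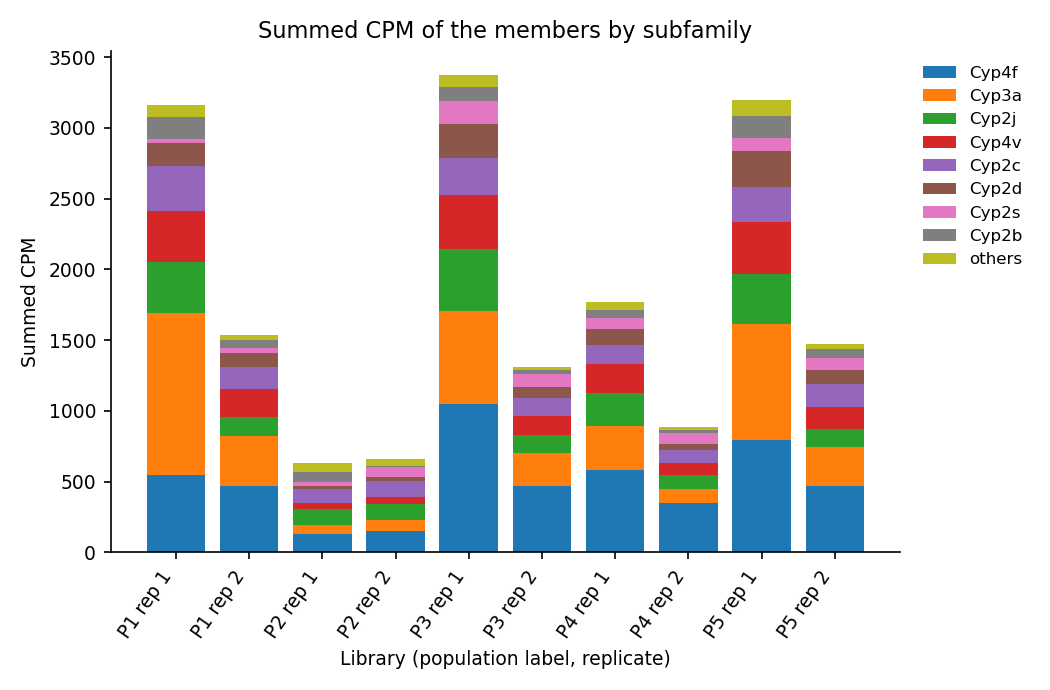
Summed CPM of the members in each library, stacked by subfamily. Cyp4f and Cyp3a made up the largest parts on average, 27.8% and 22.4% of the sum. Cyp3a lay above Cyp4f in P1 replicate 1 (1143 against 545 CPM) and P5 replicate 1 (826 against 791). Under the label P2, Cyp3a (68.4 and 76.3 CPM) lay below Cyp2j (113 and 111) and Cyp2c (101 and 112). In P4 replicate 2 it lay below Cyp2j, at 94.4 against 104 CPM.

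Family 4 held the member most abundant on average over the 10 libraries, with and without correction for transcript length. In single libraries Cyp3a13 led in P1 replicate 1, at 596 CPM. Cyp2j6 led in both libraries labelled P2, at 102 and 95.6 CPM, and Cyp4f14 in the others. Cyp4f14 encodes an omega-hydroxylase of leukotriene B4 and long-chain fatty acids. It measured 444 and 373 CPM in P1, 32.8 and 59.8 in the libraries labelled P2, 727 and 294 under the label P3, 384 and 206 in P4, with 578 and 318 in P5. The libraries labelled P2 lay far below all others, whose ranges overlapped between populations. Per kilobase of exon, Cyp4f14 averaged 155 CPM, followed by Cyp3a13 at 76.2, Cyp4v3 at 66.9, Cyp2d26 at 61.6, Cyp2j6 at 55.6 and Cyp3a11 at 45.4. Each of the genes after Cyp4f14 in that order ranged over at least 4.39-fold between libraries, and Cyp4f14 over 22.1-fold. The order is that of the means, and genes were not tested against each other within libraries.

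Cyp4f40, which lies in the same cluster on chromosome 17, followed a different course. It measured 26.9 and 25.9 CPM in P1, 4.26 and 6.23 in the libraries labelled P2, 191 and 102 under the label P3, 102 and 75.5 in P4, with 86.0 and 68.3 in P5. P1 and the libraries labelled P2 thus lay below P3, P4 and P5 without overlap, and P2 below P1. Cyp4f16 measured 37.3 and 44.5 CPM in P1, 23.1 and 30.7 under the label P2, 91.0 and 43.4 under P3, 53.0 and 37.3 in P4, with 69.4 and 53.2 in P5. Its P2 libraries lay below the others, and P1 and P4 lay below P5 by small gaps. Cyp4v3, a fatty acid omega-hydroxylase whose human counterpart is mutated in a crystalline retinal dystrophy, measured 365 and 196 CPM in P1, 42.6 and 52.3 under P2, 381 and 131 under P3, 202 and 82.7 in P4, with 366 and 155 in P5. Replicate 1 lay above replicate 2 in each population except P2. The other family 4 members were Cyp4b1, at 8.01 to 95.3 CPM, Cyp4f13, at 25.2 to 55.9, and Cyp4f15, Cyp4f17 and Cyp4a10, none above 8.82 CPM in any library. Cyp4a10, a fatty acid hydroxylase regulated by Ppara, was at 0 in both libraries labelled P2.

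In family 3, Cyp3a13 and Cyp3a11 encode enzymes of broad drug and steroid metabolism, and Cyp3a11 is the classical target of Pxr in mouse. Cyp3a13 measured 596 and 156 CPM in P1, 49.9 and 44.9 under the label P2, 433 and 120 under P3, 221 and 62.4 in P4, with 435 and 134 in P5. Cyp3a11 measured 379 and 113 CPM in P1, 13.1 and 20.2 under P2, 147 and 60.0 under P3, 37.5 and 11.1 in P4, with 222 and 60.7 in P5. For both genes replicate 1 lay well above replicate 2 outside P2, and for Cyp3a11 P4 lay as low as the libraries labelled P2. Cyp3a25 measured 164 and 82.6 CPM in P1, 4.56 and 10.9 under P2, 80.9 and 52.0 under P3, 56.3 and 20.8 in P4, with 167 and 76.1 in P5. The libraries labelled P2 lay below the other 8, P4 lay below P1 and P5, and P3 lay below P1. The fourth, Cyp3a59, did not exceed 3.38 CPM and was at 0 in both libraries labelled P3.

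Of the Cyp2c members, which include epoxygenases of arachidonic acid, Cyp2c65 was the most abundant. It measured 117 and 68.9 CPM in P1, 20.1 and 40.7 under the label P2, 142 and 77.7 under P3, 83.1 and 55.5 in P4, with 114 and 89.7 in P5. Only the libraries labelled P2 stood below the rest. Cyp2c55, a hydroxylase of arachidonic acid that answers to Pxr and Car in liver, measured 16.4 and 24.4 CPM in P1, 1.52 and 2.002 under P2, 10.6 and 12.6 under P3, 4.90 and 5.34 in P4, with 18.9 and 22.9 in P5. Its replicates lay close together, P1 and P5 overlapped at the top, and P3, P4 and P2 followed in steps without overlap. Cyp2c66 measured 36.7 and 19.3 CPM in P1, 2.13 and 2.22 under P2, 30.2 and 7.53 under P3, 14.0 and 9.89 in P4, with 32.3 and 21.5 in P5. Only P2 stood below all other libraries. Cyp2c44, an epoxygenase, measured 24.7 and 13.2 CPM in P1, 0 and 0.445 under P2, 2.64 and 0.664 under P3, 2.20 and 0.297 in P4, with 2.29 and 0.634 in P5. Both P1 libraries lay above the other 8. Cyp2c68 went the other way, with 75.4 and 66.3 CPM under the label P2 and at most 48.1 elsewhere. Cyp2c29 and Cyp2c38 had their highest levels in P1 replicate 1, at 69.9 and 14.0 CPM.

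Among the other family 2 members, Cyp2j6, which acts on polyunsaturated fatty acids, measured 353 and 130 CPM in P1, 102 and 95.6 under the label P2, 419 and 126 under P3, 215 and 97.0 in P4, with 340 and 124 in P5. Here the libraries labelled P2 overlapped with the replicate 2 range of the other populations. Cyp2d26 measured 142 and 82.6 CPM in P1, 17.0 and 23.4 under P2, 209 and 77.5 under P3, 106 and 41.7 in P4, with 231 and 82.7 in P5. The libraries labelled P2 lay below the other 8. Cyp2s1, an enzyme found mainly outside the liver, measured 25.3 and 38.9 CPM in P1, 28.3 and 73.2 under P2, 163 and 86.8 under P3, 77.9 and 77.9 in P4, with 89.2 and 86.0 in P5. It was lowest in P1, below P3, P4 and P5 without overlap. Cyp2b10, the classical target of Car, measured 158 and 56.5 CPM in P1, 66.9 and 7.78 under P2, 94.2 and 26.6 under P3, 52.3 and 16.2 in P4, with 161 and 61.4 in P5. Replicate 1 lay above replicate 2 in all 5 populations. Cyp2e1, which oxidizes ethanol and other small molecules, measured 1.18 and 0 CPM in P1, 44.1 and 7.56 under P2, 0 and 4.43 under P3, 4.41 and 6.92 in P4, with 6.63 and 8.45 in P5. Its P2 mean rested mainly on replicate 1, and P1 was lowest apart from P3 replicate 1.

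The only family 1 member, Cyp1a1, did not exceed 1.69 CPM and had no count under the label P3. Cyp2r1, a hydroxylase of vitamin D, stayed between 0 and 1.83 CPM. Cyp2j5, known best from kidney, reached 4.26 and 7.78 CPM under the label P2 and at most 0.857 CPM elsewhere. Counting each member once by its highest population mean, 10 peaked in P1, 6 under P2, 9 under P3, 2 in P4 and 5 in P5. Cyp2j5, among those under P2, met the count minimum through the P2 libraries alone, so its place was fixed by that rule. The same holds where it is counted in comparisons that use P2 and in the test over all 5 populations. By their lowest mean, 18 members had it under the label P2, 6 in P1, 4 under P3, 2 in P4 and 2 in P5. Highest and lowest means were not counted over all genes, so these counts show no trait particular to the members.

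**Figure D3:**
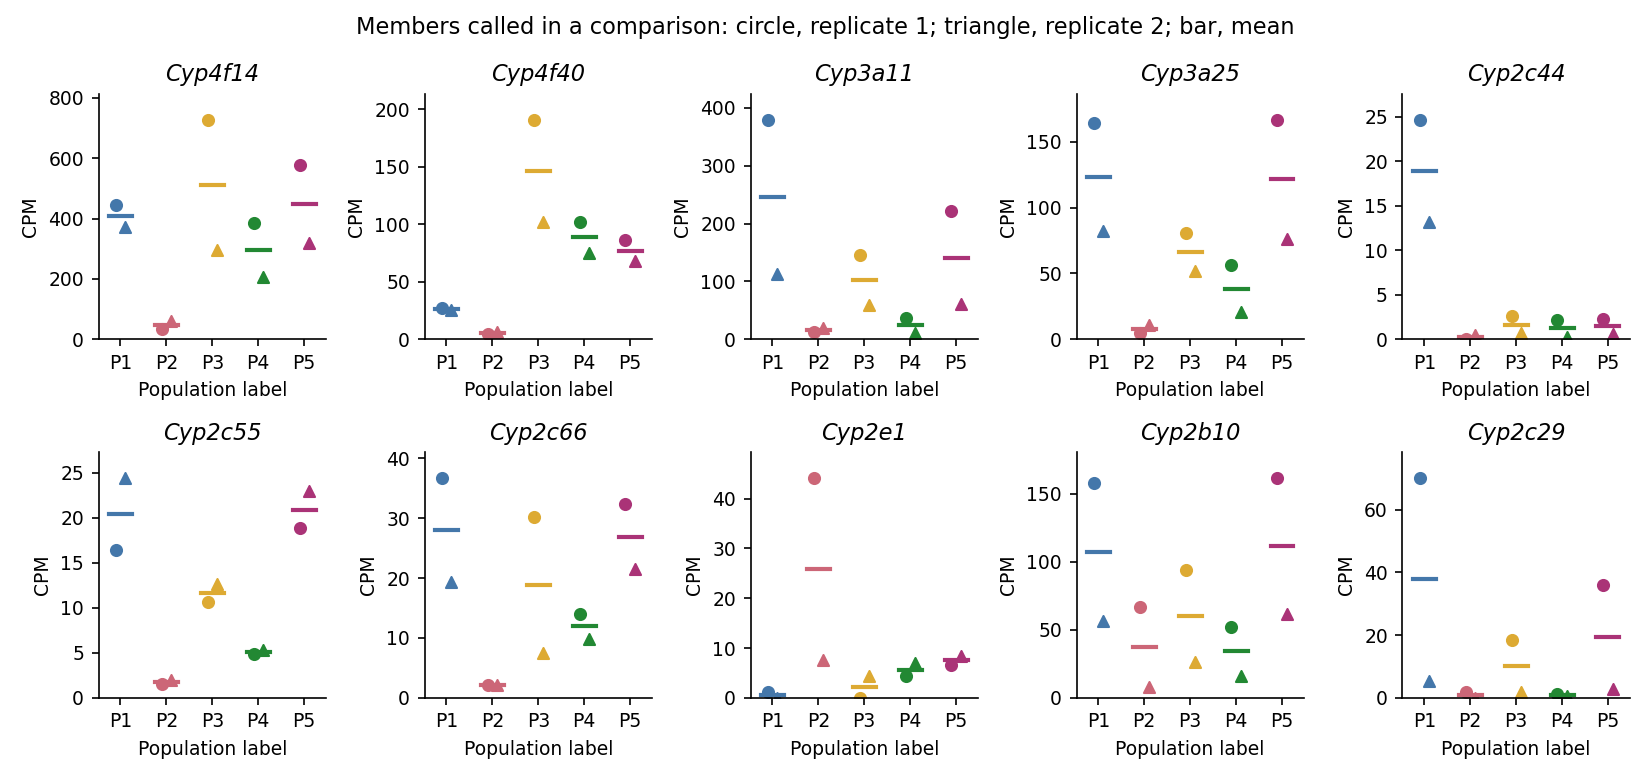
CPM of the 10 members called in at least 1 comparison, by population label, with replicate 1 as circles, replicate 2 as triangles and the mean of the 2 as a bar. Cyp4f40 was at most 26.9 CPM in P1 and P2 and at least 68.3 CPM in the other populations.

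Promoter windows were read for 4 members that differed between populations in different ways, so that their letters can be set beside their levels. They come from RefSeq on GRCm38.p6, which held 27 of the 32 members by symbol; Cyp2u1, Cyp4f17, Cyp2d22, Cyp4a10 and Cyp2c44 had no entry. Capitals mark TATAAA as in the TATA box, CAAAG as in the HNF4 core or GTTAAT as in the HNF1 site. They mark either strand, so that the HNF4 letters may also read CTTTG. Distance to the start was not used, and TATAAA in the Cyp3a11 window lies at the end far from it. The 4 windows and the 3 marked patterns were chosen after levels and matches had been seen. Each window is the 250 bases before a transcript start, 5′ to 3′ on the gene's strand.
Cyp4f14 (chr17:32917357-32917606, minus strand, 1 of 4 windows of this gene): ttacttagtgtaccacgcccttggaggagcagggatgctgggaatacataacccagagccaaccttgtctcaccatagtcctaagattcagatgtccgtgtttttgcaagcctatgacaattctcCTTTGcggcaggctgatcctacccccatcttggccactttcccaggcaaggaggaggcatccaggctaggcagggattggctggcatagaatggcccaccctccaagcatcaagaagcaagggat
Cyp4f40 (chr17:32658636-32658885, plus strand, 1 of 2 windows): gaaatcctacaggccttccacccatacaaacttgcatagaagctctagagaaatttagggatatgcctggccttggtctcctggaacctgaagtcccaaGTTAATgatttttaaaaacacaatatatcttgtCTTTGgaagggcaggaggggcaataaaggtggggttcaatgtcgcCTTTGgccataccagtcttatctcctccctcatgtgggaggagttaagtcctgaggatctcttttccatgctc
Cyp3a11 (chr5:145879855-145880104, minus strand): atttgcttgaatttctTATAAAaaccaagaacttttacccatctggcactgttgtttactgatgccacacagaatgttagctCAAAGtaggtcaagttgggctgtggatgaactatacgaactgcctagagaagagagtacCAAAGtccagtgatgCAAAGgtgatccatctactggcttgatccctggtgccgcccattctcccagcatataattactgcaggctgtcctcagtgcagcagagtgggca
Cyp2c55 (chr19:39006769-39007018, plus strand): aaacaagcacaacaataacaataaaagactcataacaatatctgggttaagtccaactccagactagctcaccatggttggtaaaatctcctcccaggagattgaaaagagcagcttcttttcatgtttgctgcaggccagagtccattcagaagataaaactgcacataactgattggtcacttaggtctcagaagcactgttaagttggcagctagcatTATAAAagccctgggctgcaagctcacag

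The marked letters occurred 1 time in the Cyp4f14 window, 3 times in that of Cyp4f40, 4 times in that of Cyp3a11 and 1 time in that of Cyp2c55. In all, 14 patterns were searched on both strands of windows from 250 bases before to 50 bases after each start, and a gene counted where any of its windows matched. CAAAG occurred in 22 of the 27 members and in 57.4% of all 27025 genes in the table. TATAAA occurred in 10 members and 15.7% of genes, and its longer form TATAAAA in 5 members and 6.39% of genes. GTTAAT occurred in 4 members (Cyp2c68, Cyp2d26, Cyp4f14 and Cyp4f40) and 8.24% of genes, while a 12-letter HNF1 site that contains it, GTTAATNATTAA, occurred in 0 members and 0.0740% of genes. CAAAGTCCA, an HNF4 site that holds CAAAG, occurred in 3 members (Cyp2c65, Cyp2c68 and Cyp3a11) and 0.555% of genes. The xenobiotic response core GCGTG occurred in 9 members and 35.2% of genes. Short nuclear receptor motifs gave 3 members and 15.7% for AGTTCA, 5 members and 18.1% for AGGTCA, 7 members and 16.0% for AGTCCA, and 10 members and 16.1% for ACTTTG, which overlaps CAAAG read on the other strand. The CDX letters TTTATG or TTTATT gave 9 members and 30.8%, the GATA letters AGATAA 6 members and 12.7%, and the TCF letters CTTTGNA or CTTTGNT, which also overlap CAAAG, 17 members and 36.0%. A match describes letters in a window and shows no binding.

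P1 was compared with P4 for the difference between OSCARlow and OSCARmed cells at low EF1a signal. Cyp2c55 was higher in P1 and Cyp4f40 lower, 2 of 32 members. Cyp2c55 differed by 1.99 (SE 0.32, edgeR adjusted p 0.00198, 2 libraries each) and Cyp4f40 by -1.75 (SE 0.32, edgeR adjusted p 0.00308), and for both genes all libraries of one population lay on the same side of the other. Of all genes tested, 14.0% were called higher in P1 and 9.44% lower, so 1 member in each direction lay below both shares. Cyp2c44, at 3.94 (SE 0.98, edgeR adjusted p 0.0116), and Cyp3a11, at 3.35 (SE 0.86, edgeR adjusted p 0.0132), did not pass the threshold. With the replicate number as a term in the model, a replicate block, 6 members were called, with Cyp2c44 (edgeR adjusted p 0.00194), Cyp3a11 (0.00131), Cyp2c29 (0.000603) and Cyp2b10 (0.00412) added, beside 28.3% of all genes. DESeq2's test called 4 members and 33.8% of genes, and the fit without a filter on low counts 13 members and 22.8% of 21998 genes. An unadjusted p under 0.05 was found for 11 members, beside 51.9% of all genes. The members' median was 0.62, with 21 above 0, beside -0.06 for all genes. In 12 members P1 lay wholly above P4 and in 6 wholly below, beside 37.7% and 40.3% of all genes.

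With scaling factors computed without mitochondrial genes, the all-gene median of P1 against P4 was -0.26 and the members' median 0.40, over 31 members since Cyp1a1 was not tested, and the share of calls that were higher went from 59.8% to 46.9%. The count of 2 members fell to 1 without P1 replicate 1, where 5.83% of all genes were called, to 0 without P1 replicate 2, with 8.15%, and to 0 without P4 replicate 1 or P4 replicate 2, with 0% in each, so the latter falls were those of all genes. The library left alone in its population is then assumed to vary like the other populations. Beside the members, all 18 enterocyte markers were measured in each library, with sums of 69531 and 52224 CPM in P1, 3150 and 7220 under the label P2, 37131 and 11164 under P3, 15767 and 6189 in P4, with 26838 and 11073 in P5, and Fabp2 was the most abundant. In P1, 4 of the 18 were called higher and 0 lower, and 16 lay above 0, with a median of 1.82. The 10 Paneth cell markers summed to 19809 and 64292 CPM in P1, 3451 and 1845 under P3, 508 and 864 in P4, with 10846 and 2232 in P5, and 9 were called higher in P1 than in P4, with a median of 5.96. Of the lymphocyte markers, 7 of 10 tested were called higher in P1, and of the stem cell markers, 9 of 12 were called lower, with a median of -2.61. The part of these cell types in the members' differences was not tested.

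P2 was compared with P4 for the difference between OSCARhigh and OSCARmed cells at low EF1a signal. By label, Cyp4f14 and Cyp4f40 were lower in P2, with no member higher. Under the label P3 their means, 511 and 146 CPM, lay above those of P4, 295 and 88.6 CPM, so both directions rest on the labels. P3 was not compared with P4. Cyp4f14 differed by -2.67 (SE 0.54, edgeR adjusted p 0.00662) and Cyp4f40 by -4.05 (SE 0.37, edgeR adjusted p 0.000399), both without overlap. Over the 10 fits that left out 1 library, Cyp4f14 lay at -3.20 to -2.17 and lost its call in 6. Cyp4f40, at -4.40 to -3.85, kept its call in all 10. The 2 lower calls stood beside 6.30% of all genes called lower, and the 0 higher calls by edgeR's test beside 8.02% called higher. At an unadjusted p under 0.05 there were 14 members, beside 40.6% of all genes, and DESeq2's test called 5 members and 23.3% of genes. Cyp2j5 was among the 14, with its direction fixed by the count minimum. Cyp2c68, at 1.63 (SE 0.40, edgeR adjusted p 0.0148), and Cyp2c55, at -1.51 (SE 0.39, edgeR adjusted p 0.0185), did not pass. The replicate block gave 4 calls, with Cyp2c66 (edgeR adjusted p 0.00570) and Cyp2c68 (0.000795) added, beside 17.4% of all genes, and the fit without a filter on low counts 11, beside 15.9%. The members' median was -0.70, with 9 above 0, beside 0.05 for all genes. Among the markers, 10 of 10 for Paneth cells (median 9.38) and 8 of 10 for goblet cells (median 3.37) were called higher. So were 6 of 16 for enteroendocrine cells (median 3.33), 5 of 12 for tuft cells (median 3.30) and 2 of 3 tested for hepatocytes. Called lower were 3 of 12 for stem cells and 2 of 18 for enterocytes (median -1.36). The part of these markers in the members' differences was not tested. The count was 1 without any single library of P1, P2 or P4, where 2.21% to 11.8% of all genes were called, and 4 without either or both of the libraries labelled P3, where 18.9% to 20.8% were.

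P2 was then compared with P1, OSCARhigh against OSCARlow at low EF1a signal, where most member calls were made. By label, 7 members were lower in P2: the omega-hydroxylase gene Cyp4f14 and Cyp4f40 of the same subfamily, the drug-metabolizing Cyp3a11 and Cyp3a25, and Cyp2c44, Cyp2c55 and Cyp2c66 of the arachidonic acid branch. Cyp2e1 was the 1 member that was higher. These calls rest on the labels. In P3 against P1, 1 of 32 members was called, beside 15.6% of all genes. That member was Cyp4f40, which was higher there, by 2.46 (SE 0.33), where it was lower in P2. The 7 lower calls were 7 of 32 members beside 15.2% of all genes, and the 1 higher call stood beside 13.9%. Each of the 8 had its P2 libraries wholly on one side of its P1 libraries, as did 20 members below and 5 above in all, beside 38.6% and 38.5% of all genes. Cyp2j5, among the 5 above, met the count minimum through the P2 libraries alone, so that rule fixed its side.

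Within the Cyp2c branch the difference was -3.50 for Cyp2c55 (SE 0.38, edgeR adjusted p 0.000327) and -3.67 for Cyp2c66 (SE 0.69, edgeR adjusted p 0.00267). Cyp2c44 had 2 counts over both libraries labelled P2 against 225 in P1. Divided by the scaled sizes of both libraries together, these gave a ratio of P1 to P2 of 73.5 (95% exact counting interval 20.1 to 611, edgeR adjusted p 0.00465). This pooled ratio is not the ratio of the mean CPM values. For the Cyp3a genes it was -3.87 for Cyp3a11 (SE 0.90, edgeR adjusted p 0.00720) and -3.96 for Cyp3a25 (SE 0.68, edgeR adjusted p 0.00168). For the Cyp4f genes it was -3.14 for Cyp4f14 (SE 0.55, edgeR adjusted p 0.00196) and -2.31 for Cyp4f40 (SE 0.37, edgeR adjusted p 0.00125). Cyp2e1 differed by 5.40 (SE 1.30, edgeR adjusted p 0.00851), with 7 and 0 counts in P1 and 145 and 34 under P2. Cyp4v3, at -2.56 (SE 0.65, edgeR adjusted p 0.0110), Cyp2c65, at -1.60 (SE 0.43, edgeR adjusted p 0.0142), and Cyp2d26, at -2.47 (SE 0.67, edgeR adjusted p 0.0151), did not pass. The replicate block gave 16 calls, with Cyp2b10, Cyp2c29, Cyp2c38, Cyp2c68, Cyp2d22, Cyp2d26, Cyp3a13 and Cyp4v3 added, beside 33.0% of all genes. DESeq2's test called 13 members and 37.5% of genes, and the fit without a filter on low counts 21 members and 25.0%.

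**Figure D4:**
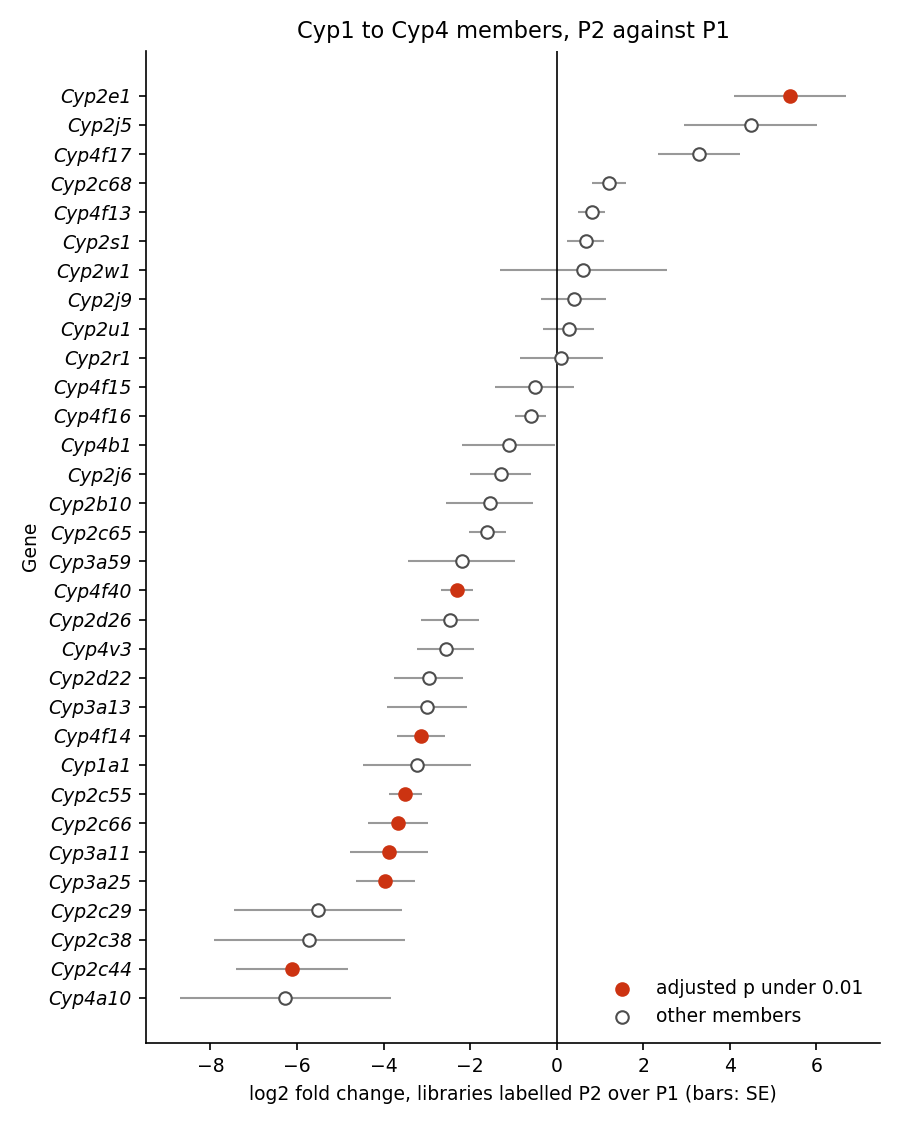
Log2 fold change of each member between the libraries labelled P2 and P1, with its SE; filled points are the 8 members at an edgeR adjusted p under 0.01. Fitted values of Cyp4a10, at 0 under P2, and of Cyp2c44, with 2 counts there, depend on the prior count and are no bounds.

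Over the whole list, 21 members had an unadjusted p under 0.05 between P2 and P1, beside 54.4% of all genes. Cyp2j5 was among them, with its direction fixed by the count minimum. The members' median was -1.90, or -1.78 with Cyp4a10 set to the bound that 3 counts allow, beside 0.01 for all genes, and 10 members lay above 0. With scaling without mitochondrial genes, the all-gene median was 0.16 and the members' median -1.46. Without the library labelled P2 replicate 1 the count of 8 fell to 1, beside 10.8% of all genes, without P2 replicate 2 to 5, beside 17.1%, and without P1 replicate 1 to 4, beside 13.5%, while it was 12 without the libraries labelled P3, beside 37.7%. Cyp2c55 was called in all 10 fits that left out 1 library, at -3.78 to -3.18, and Cyp2e1 in 3 of them. Over all 10, Cyp2e1 ranged from 3.65 to 10.3. The call was lost in 4 of these fits for Cyp2c44, in 3 for Cyp3a11 and in 3 for Cyp2c66. It was lost in 1 each for Cyp3a25, Cyp4f14 and Cyp4f40. Of the 18 enterocyte markers, 11 were called lower than in P1 and 0 higher, with a median of -3.79. Markers called higher under the label P2 were 9 of 10 for goblet, 10 of 16 for enteroendocrine, 6 of 12 for tuft, 4 of 10 for Paneth and 4 of 12 for stem cells, and 6 of 10 lymphocyte markers were called lower. All 3 tested hepatocyte markers were called higher too: Alb, at 7.35, Apoh, at 3.87, and Ttr, at 3.34 (SE 1.09, 0.85 and 0.57). Their part in the members' levels was not tested.

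P3 was compared with P1, OSCARlow cells at high against low EF1a signal. Cyp4f40 was higher by label in P3, by 2.46 (SE 0.33, edgeR adjusted p 0.00165), with both P3 libraries above both P1 libraries. It was the 1 member called higher beside 8.02% of all genes, and 0 members were called lower by edgeR's test beside 7.59%. At an unadjusted p under 0.05 there were 6 members, beside 44.9% of all genes, and DESeq2's test called 3 of 27 members tested, beside 27.8% of genes. Cyp2s1, at 1.95 (SE 0.45, edgeR adjusted p 0.0104), missed the threshold, and it passed with scaling by DESeq2 size factors, at an edgeR adjusted p of 0.00954, with scaling without mitochondrial genes, at 0.00746, and with the replicate block, at 0.00856, which called 3 members with Cyp2c44 (edgeR adjusted p 0.00634), beside 19.0% of all genes. With only P1 and P3 in the model no gene was called, and Cyp4f40 had an edgeR adjusted p of 0.0155. Without a filter on low counts, 7 members and 18.2% of genes were called. The median of the members was -0.13, beside -0.03 for all genes, with 15 above 0. With DESeq2 size factors, 13 lay above 0, as Cyp2d22 and Cyp4f13 changed sign. Of the Paneth cell markers, 2 of 10 were called lower in P3 (median -3.99), of the stem cell markers 2 of 12 higher, and of the enterocyte markers 1 of 18 lower, and their part was not tested. Without P1 replicate 1 or P1 replicate 2 the count was 0, beside 0% and 2.17% of all genes, without P3 replicate 2 it was 2, beside 8.70%, and without P2 replicate 1 or P2 replicate 2 it was 2, beside 13.0% and 13.3%.

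At high EF1a signal, P3 was compared with P5, OSCARlow against OSCARmed. No member and no other gene was called by edgeR's test in either direction (0% higher and 0% lower), DESeq2's test called 0 members, and the fit without a filter on low counts called 1, beside 1.38% of genes. At an unadjusted p under 0.05 there were 5 members, beside 11.6% of all genes. Cyp4f40 differed by 0.91 (SE 0.31, edgeR adjusted p 0.397) and Cyp2c55 by -0.83 (SE 0.32, edgeR adjusted p 0.405). The members' median was -0.10, beside 0.03 for all genes. It was -0.05 with Cyp1a1 and Cyp3a59 set to the bounds that 3 counts allow and Cyp2j5 left out. Above 0 lay 13, or 10 of 31 with scaling without mitochondrial genes, under which Cyp2c65, Cyp2d22 and Cyp4f16 changed sign. Of the markers, 0 of 12 for stem cells (median -1.24), 0 of 10 for Paneth cells (-1.20) and 0 of 10 for goblet cells (-0.98) lay above 0. All 10 lymphocyte markers (4.23) and 13 of 18 enterocyte markers (0.33) did, and their part was not tested. A difference that misses the threshold does not show equal levels.

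P5 was compared with P4, OSCARmed cells at high against low EF1a signal. Again 0% of all genes were called higher and 0% lower by edgeR's test, and 0 members, with 5 members at an unadjusted p under 0.05, beside 2.56% of all genes. DESeq2's test called 1 member, Cyp2c55, and 0.237% of genes, and the fit without a filter on low counts 5 members and 0.886% of genes. By edgeR, Cyp2c55 differed by 2.02 (SE 0.32, edgeR adjusted p 0.231), with 18.9 and 22.9 CPM in P5 and 4.90 and 5.34 in P4. Cyp3a11, at 2.55 (SE 0.83, edgeR adjusted p 1), Cyp3a25, at 1.66 (SE 0.58, edgeR adjusted p 1), Cyp2c29 and Cyp1a1, with 2 counts over both P4 libraries, were the other members under 0.05 before adjustment. The members' median was 0.59, beside 0.01 for all genes, and 25 lay above 0, or 23 of 31 with scaling without mitochondrial genes, where Cyp2u1 changed sign. All 18 enterocyte markers also lay above 0 in this comparison, with a median of 0.78, as did the 10 Paneth cell markers, with a median of 3.19, and 0 of either list were called by edgeR's test. Their part in the members' differences was not tested.

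Whether the OSCARlow against OSCARmed difference depends on the EF1a signal was tested as the difference of 2 differences, P3 minus P5 less P1 minus P4. It takes the libraries labelled P3 as OSCARlow EF1ahigh, as the comparison of P3 with P5 does, and neither was run with the labels of P2 and P3 exchanged. Those labelled P2 measured less Cyp2c55 and Cyp4f40 than those labelled P3. Mean Cyp2c55 was 20.9 CPM in P5, with 11.6 under P3 and 1.76 under P2, both below P5. Mean Cyp4f40 was 77.2 CPM in P5, with 146 under P3 and 5.24 under P2. An exchange of labels would thus enlarge the difference from P5 for Cyp2c55 and turn its direction for Cyp4f40. By edgeR's test 0 members were called, beside 0.328% of all genes called higher and 0.489% lower. At an unadjusted p under 0.05 there were 10 members, beside 33.9% of all genes, and DESeq2's test called 3 of 23 members tested, beside 18.6% of genes. Cyp2c55, at -2.82 (SE 0.45, edgeR adjusted p 0.0106), and Cyp4f40, at 2.66 (SE 0.44, edgeR adjusted p 0.0109), lay just outside the threshold. Both passed it with scaling by DESeq2 size factors, at edgeR adjusted p of 0.00859 and 0.00874, and with scaling without mitochondrial genes, at 0.00934 and 0.00914. The replicate block called 5 members: Cyp2c55 (edgeR adjusted p 0.00639), Cyp4f40 (0.00648), Cyp2c29 (0.00584), Cyp2b10 (0.00930) and Cyp3a11 (0.00998), beside 4.57% of all genes. Without a filter on low counts, 11 members and 10.5% of genes were called. The members' median was -0.87, or -0.75 over the 29 members with counts in all 4 populations, beside -0.03 for all genes, with 8 above 0. Scaling without mitochondrial genes gave -0.74 and 0.09, and the share of higher calls among all calls was 40.2% with TMM and 55.5% without mitochondrial genes. The medians of the markers were -1.85 for enterocytes (3 of 18 above 0), -7.10 for Paneth cells (0 of 10 above 0, with Defa17 called lower) and 0.92 for stem cells (11 of 12 above 0), and their part in the members' values was not tested.

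A test over all 5 populations without direction called Cyp4f40, Cyp2c55, Cyp2c44, Cyp3a25 and Cyp4f14. These 5 of 32 members stood beside 36.3% of all genes. An unadjusted p under 0.05 was found for 19 members, beside 63.6% of all genes. The edgeR adjusted p was 0.000232 for Cyp4f40, 0.000493 for Cyp2c55, 0.00511 for Cyp2c44, 0.00557 for Cyp3a25 and 0.00611 for Cyp4f14. With the replicate block it called 14 members and 41.7% of all genes, with DESeq2's test 16 and 53.6%, and without a filter on low counts 23 and 36.1%. Over the 4 populations other than P2 the test called 2 of 30 members, beside 15.1% of all genes, and over the 4 other than P3 it called 9, beside 48.1%. It called 2 without P1 replicate 1 or P2 replicate 1, beside 18.4% and 21.1% of all genes, and 3 without P1 replicate 2 or P2 replicate 2, beside 19.9% and 22.5%. Without P3 replicate 1 it called 8, beside 41.5%, and without P3 replicate 2 it called 9, beside 44.1%.

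The members also differed between the replicate numbers. Of the 12 most abundant members, 12 measured more in replicate 1 than in replicate 2 in P3, P4 and P5, 10 did in P1 and 3 under the label P2. In P4 the margin of Cyp2s1 was small, at 77.88 against 77.85 CPM. Over the members with counts in both libraries, the median log2 ratio of replicate 1 to replicate 2 was 0.90 in P1, -0.25 under P2, 1.47 under P3, 0.85 in P4 and 1.04 in P5. Over all genes it lay between -0.10 and 0.09. The 18 enterocyte markers gave 0.75, -0.84, 1.67, 1.60 and 1.35 in the same order, with all 18 above 0 in P3, P4 and P5. The stem cell markers gave -0.02, 0.33, -1.07, -0.32 and -0.41.

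**Figure D5:**
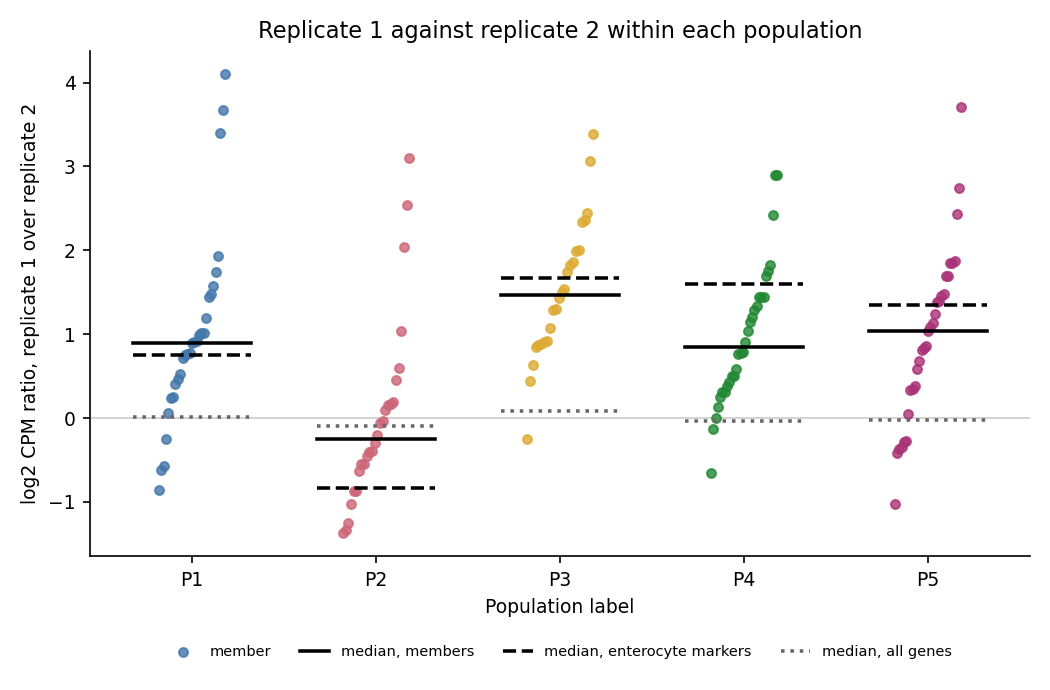
Log2 ratio of CPM in replicate 1 to replicate 2 for each member with counts in both libraries of a population. Lines give the medians of the members, of 18 enterocyte markers and of all genes; the members' median lay above that of all genes in P1, P3, P4 and P5 and below it under P2.

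A comparison of replicate 1 with replicate 2 over the 5 populations, added after these values had been seen, called Cyp2c29 and Cyp2b10 higher in replicate 1. Both are classical targets of Car in mouse liver. Cyp2c29 measured 69.9 and 5.50 CPM in P1, 1.82 and 0 under P2, 18.5 and 1.77 under P3, 1.35 and 0.495 in P4, with 36.0 and 2.75 in P5. Like Cyp2b10, it measured more in replicate 1 in all 5 populations. Cyp2c29 differed by 3.41 (SE 0.35, edgeR adjusted p 0.00293) and Cyp2b10 by 1.83 (SE 0.22, edgeR adjusted p 0.00700). Over the 10 fits that left out 1 library, Cyp2c29 lay at 3.22 to 3.65 and lost its call in 4. Cyp2b10 lay at 1.59 to 1.96 and lost its call in 8. The 2 higher calls stood beside 0.197% of all genes, and the 0 lower calls by edgeR's test beside 0.124%. At an unadjusted p under 0.05 there were 18 members, beside 11.1% of all genes, and DESeq2's test called 7 members and 1.38% of genes, the fit without a filter on low counts 9 and 0.918%. Cyp3a13, at 1.53 (SE 0.26, edgeR adjusted p 0.0373), and Cyp2j6, at 1.19 (SE 0.23, edgeR adjusted p 0.0638), did not pass. The median of the members was 0.82, beside -0.03 for all genes, and 27 lay above 0. All 10 lymphocyte markers (median 2.29) and all 18 enterocyte markers (median 0.99) lay above 0 too, and 0 of 12 stem cell markers did (median -0.26). Of these lists 0 genes were called, and their part in the members' differences was not tested. The count of 2 was 0 without any single library of P1 or P5, where at most 0.131% of all genes were called, 1 without any single library of P3 or P4, where at most 0.242% were, and 9 without either or both of those labelled P2, where at most 0.898% were. The labels do not say what a replicate number stands for, so animal, day and handling cannot be told apart.

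Genes that work with the P450s were taken from lists. Of all genes tested, 14.0% were called higher and 9.44% lower in P1 against P4, and 8.02% and 6.30% in P2 against P4. In P2 against P1 the shares were 13.9% and 15.2%, and in P3 against P1 8.02% and 7.59%. These are the shares to set beside the counts of each list. Of 9 tested genes for electron transfer and haem supply, 2 were higher in P1 than in P4 and 0 lower: Cyb5b, at 2.44 (SE 0.50, edgeR adjusted p 0.00507), and Cyb5r3, at 2.62 (SE 0.56, edgeR adjusted p 0.00616), which carry electrons by way of cytochrome b5. In P2 against P1, 3 were lower and 0 higher, the same pair and Alas1, the first enzyme of haem synthesis, at -1.80 (SE 0.23, edgeR adjusted p 0.000512). Por, the P450 oxidoreductase itself, measured 81.3 and 37.5 CPM in P1, 80.3 and 75.2 under P2, 364 and 85.4 under P3, 163 and 75.3 in P4, with 188 and 79.7 in P5, and was not called in any comparison. Its replicate 1 value exceeded replicate 2 in all 5 populations.

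Of 21 tested receptors and factors that regulate Cyp1 to Cyp4 genes, 6 were higher in P1 than in P4 and 1 lower, 5 were lower in P2 than in P4, and 12 were lower in P2 than in P1, with 0 higher in both. Nr1i2, which encodes Pxr, differed by 1.78 in P1 against P4 (SE 0.41, edgeR adjusted p 0.00847) and by -2.90 in P2 against P1 (SE 0.44, edgeR adjusted p 0.000967). Nr1i3, which encodes Car, measured 69.3 and 53.0 CPM in P1 and 3.65 and 3.78 under P2, at -4.03 (SE 0.56, edgeR adjusted p 0.000684). Hnf4a, the most abundant of the list, measured 1162 and 1404 CPM in P1 and 419 and 665 under P2 and was not called. Nr5a2 was called in the same direction as Cyp4f40 in P1 against P4, at -1.04 (SE 0.22, edgeR adjusted p 0.00586), and in P3 against P1, at 1.45 (SE 0.23, edgeR adjusted p 0.00248). Of 5 tested genes of the aryl hydrocarbon receptor battery, 1 was higher in P1 than in P4 and 0 lower. In P2, 2 were lower than in P4 and 0 higher: Aldh1a7, at -2.51 (SE 0.48), and Nqo1, at -2.63 (SE 0.40). In P2, 3 were lower than in P1 and 0 higher, among them Nqo1, at -3.45 (SE 0.41, edgeR adjusted p 0.000393).

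Among 35 tested conjugating enzymes, 10 were higher in P1 than in P4 and 1 lower, 9 were lower in P2 than in P4 and 18 lower in P2 than in P1, with 0 higher in both. The shares of all genes called were 14.0%, 9.44%, 6.30% and 15.2% in the same order. In P3 against P1, 4 were higher and 2 lower, and Gstk1 was lower in the difference of differences, at -2.86 (SE 0.40, edgeR adjusted p 0.00884). Ugt2b35 was called in the same directions as Cyp4f40, lower in P1 than in P4 by -1.69 (SE 0.25, edgeR adjusted p 0.00152) and higher in P3 than in P1 by 1.88 (SE 0.25, edgeR adjusted p 0.00168). Of 15 tested efflux and carboxylesterase genes, 0 were higher and 3 lower in P1 than in P4, 1 higher and 6 lower in P2 than in P4, 3 higher and 6 lower in P2 than in P1, and 3 higher and 0 lower in P3 than in P1, and Abcc2 was higher in replicate 1. Ces2g was called with Cyp4f40 in each of these population comparisons, at -1.69, -4.60, -2.92 and 2.40 (SE 0.30, 0.37, 0.37 and 0.31). Of 11 tested genes of eicosanoid and epoxide metabolism, 4 were higher and 1 lower in P1 than in P4, 4 higher and 1 lower in P2 than in P4, and 5 higher and 2 lower in P2 than in P1, and Ephx1 was higher in P3 than in P1. The 4 genes higher in P2 than in P4, which were also higher in P2 than in P1, stand on the marker lists too: Alox5, Alox5ap and Ptgs1 on that of tuft cells and Pla2g2a on that of Paneth cells. Ephx2, the soluble epoxide hydrolase that acts on the products of P450 epoxygenases, measured 1748 and 1229 CPM in P1 and 24.3 and 117 under P2. In P3 against P5 and in P5 against P4, 0 genes of these lists were called by edgeR's test.

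For the most abundant member of 4 of the 6 leading subfamilies, the 5 genes with the most similar profile were taken by Pearson's r of log2 CPM plus 1 over the 10 libraries, as a description. The libraries share their populations and replicate numbers, so these are not independent points. Cyp4f14 was closest to Mogat2 (r = 0.994), Slc7a9, Alpi, Ces2c and Mep1b. Cyp3a13 was closest to Dgat2 (r = 0.987), Cyp4v3, Slc5a4a, Ace and Vwa1. Cyp2j6 was closest to Mfsd7b (r = 0.967), Dgat2, Slc13a2, Cyp3a13 and Gpr151. Cyp2c65 was closest to Agpat9 (r = 0.983), Ces2c, Fam23a, Dpp4 and Sgpl1.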

How the data were processed

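The authors deposited gene counts per library. Per the labels they mapped reads of 75 cycles to mm9 with TopHat2 2.1.0 and counted them with HTSeq 0.11.2, after quality control with FastQC 0.11.5. Counting ignored strand. Here, 204 ribosomal RNA gene names were removed, edgeR's filterByExpr kept 13708 genes, and TMM scaling gave CPM. In edgeR 4.0.16 (R 4.3.3), 1 mean per population was estimated from the 10 libraries, leaving 5 residual degrees of freedom, and contrasts were tested with the edgeR quasi-likelihood test with Benjamini-Hochberg adjustment. SEs were derived from the F statistics. Positions, exon lengths and overlaps came from GENCODE on NCBIM37, which held 33643 of the row names, and repeated 75-base windows were searched in that genome. Tables and figures used Python 3.11.15.

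Members and lists were chosen with earlier results of these data known. Values in every library are given for the 12 members with the highest mean and, in each comparison of 2 populations, for up to 5 called members per direction with the largest change. Outside the members, the most abundant gene and called genes of each list, families 5 and above, and genes with similar profiles are named. Por, the further called members, and the members described as missing the threshold were chosen after their values were seen. Alternatives covered scaling, the filter, DESeq2 1.42.0, the threshold, ribosomal RNA genes, the replicate block, the groups in the model and each library left out.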

Additional observations from a re-analysis of the deposited data

How the results depend on the processing

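Counts of called members kept within 1.5 times under another filter of 10 counts in 2 libraries and with ribosomal RNA genes kept. No called or uncalled member changed direction past the threshold. Of 300 refits of the 15 single calls, 250 were called again and 50 were not, and 202 refits of uncalled members passed the threshold while 4558 did not. In the order P1 against P4, P2 against P4, P2 against P1, P3 against P5, P5 against P4, P3 against P1, difference of differences, all 5 populations and replicate 1 against 2, the counts reported were 2, 2, 8, 0, 0, 1, 0, 5 and 2. Without a filter on low counts they were 13, 11, 21, 1, 5, 7, 11, 23 and 9, beside 22.8%, 15.9%, 25.0%, 1.38%, 0.886%, 18.2%, 10.5%, 36.1% and 0.918% of all genes in those fits. With DESeq2's test they were 4, 5, 13, 0, 1, 3, 3, 16 and 7, beside 33.8%, 23.3%, 37.5%, 0.314%, 0.237%, 27.8%, 18.6%, 53.6% and 1.38%. At an edgeR adjusted p under 0.05 they were 8, 6, 17, 0, 0, 5, 4, 16 and 3, beside 42.1%, 29.1%, 47.2%, 0.00730%, 0%, 34.0%, 17.3%, 57.9% and 0.715%. With only the groups compared in the model, P2 against P4 gave 4 of 25 members tested, beside 20.9% of genes, P2 against P1 gave 13 of 25, beside 29.7%, and P3 against P1 gave 0 of 23, beside 0%. Scaling by DESeq2 size factors, and TMM without mitochondrial genes, each gave 2 for P3 against P1 and 2 for the difference of differences. For counts that moved, the cause was not tested.

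The replicate numbers were checked for pairing: deviations from the population mean correlated by -0.0597 to 0.554 between populations (median 0.255) over all genes and by -0.192 to 0.722 (median 0.436) over the members. The pair of P2 and P3 did not exceed 0.1 over all genes, so the numbers were not taken as pairs, though the other 9 pairs did. Over the members, the 6 pairs among P1, P3, P4 and P5 gave 0.3999 to 0.722. With a replicate block the counts were 6, 4, 16, 0, 0, 3, 5 and 14, beside 28.3%, 17.4%, 33.0%, 0.0292%, 0.00730%, 19.0%, 4.57% and 41.7% of all genes, replicate 1 against 2 being a term of that model.

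Leaving out each library gave 0 to 3, 1 to 4, 1 to 12, 0 to 0, 0 to 0, 0 to 2, 0 to 0, 2 to 9 and 0 to 9, in the same order. Added after the data had been seen, the fit without the libraries labelled P3 gave 4 for P2 against P4, 9 for the populations left and 1 for replicate 1 against 2, and that without P2 gave 2 for P3 against P1, 2 and 9. Depth limits members at a few counts per library, Cyp1a1, Cyp2j5, Cyp3a59 and Cyp4a10 among them, to bounds.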

Other observations

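Of 19 genes named as Cyp families 5 and above, 4 met the same count minimum: Cyp51, Cyp27a1, Cyp39a1 and Cyp20a1. Cyp51, a demethylase of cholesterol synthesis, measured 19.4 and 30.7 CPM in P1, 64.5 and 137 under the label P2, 88.9 and 92.3 under P3, 49.6 and 56.1 in P4, with 42.2 and 67.2 in P5. It was higher in P2 than in P1, by 2.01 (SE 0.39, edgeR adjusted p 0.00293), and higher in P3 than in P1, by 1.85 (SE 0.39, edgeR adjusted p 0.00722). Cyp20a1 was higher in P2 than in P1, by 2.72 (SE 0.35, edgeR adjusted p 0.000531), and lower in P1 than in P4, by -1.49 (SE 0.34, edgeR adjusted p 0.00810). Cyp27a1, a mitochondrial sterol hydroxylase, measured 107 and 33.9 CPM in P1, 47.1 and 22.2 under P2, 58.7 and 8.63 under P3, 54.9 and 12.6 in P4, with 96.7 and 13.6 in P5. It was higher in replicate 1 over the 5 populations, by 2.08 (SE 0.25, edgeR adjusted p 0.00686). Cyp39a1 was not called in any comparison.

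The other marker lists are given as sums in CPM. The 12 stem cell markers, led by Olfm4, summed to 774 and 1057 in P1, 2086 and 1368 under P2, 684 and 3288 under P3, 5304 and 7647 in P4, with 4661 and 7471 in P5. The 14 tuft cell markers, led by Trpm5, reached 823 and 1439 under P2 and at most 306 elsewhere, and the 16 enteroendocrine markers, led by Reg4, 9153 and 18787 under P2 and at most 823 elsewhere. The lymphocyte markers, 11 of 12 found and led by Gzma, summed to 1274 and 359 in P1 and at most 224 elsewhere. Myeloid and mast cell markers, 9 of 10 found and led by Kit, reached 415 and 328 under P2 and at most 110 elsewhere. The 10 stromal and endothelial markers, with Cdh5 at 0, did not exceed 53.2. The 6 hepatocyte markers, with Fgb at 0, summed to 53.5 and 91.6 under P2, where Alb measured 23.1 and 64.9, and to at most 12.7 elsewhere.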
